A study of Zea mays with 24 samples.

Results

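A group of 30 probe sets for maize leaf transcripts without a gene name was at background in exactly 1 of 4 inbred lines and above it in the other 3. They were chosen by their own signal from 7494 probe sets to which the platform table used here gives no gene symbol. A probe set is a group of short oligonucleotide probes that reports 1 transcript sequence on an Affymetrix array. A member had a signal at or below 16.7 on every array of 1 line, called here its silent line, and a mean signal of at least 50 in each of the other 3 lines, called its expressing lines. The level of 16.7 is the 99th percentile of 44 control probe sets whose targets were not added to the samples, and it stands for background. W23 and Wf9 were the silent line of 11 and 12 members, Mo17 of 6 and B73 of 1. Because the signal of the silent line was used to choose the members, its difference from the other lines is described and not tested.

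The samples were total RNA of the 3rd, 4th and 5th leaves, pooled from 6 to 10 greenhouse plants of each of the inbred lines B73, Mo17, W23 and Wf9. Inbred lines are maintained by self-pollination, so that plants of a line are genetically nearly alike, and the labels name no treatment. Growth, harvest and extraction were repeated 3 times for every line, and 2 arrays of a pilot maize GeneChip were used for each RNA, 24 arrays in all. A value given for a growth replicate is the mean signal of its 2 arrays, and the deposited signal is an intensity on a linear scale.

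Maize inbreds are known to differ from each other in gene content as well as in regulation, and genes present in 1 inbred and missing from another are a familiar feature of the species. B73 gave the maize reference genome, and Mo17 is its classical partner in hybrid breeding and mapping. On an array of short probes, a transcript that is missing and a transcript whose sequence differs under the probes both give a low signal, and the 2 cannot be told apart in these values. The same holds for lower RNA per cell and fewer cells that express the transcript in the pooled leaves. For these reasons "silent" below means only a signal at background.

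The 17 probe sets for photosynthesis genes, which mark leaf, had a median signal of 6303, although 1 of them averaged 8.86, and all 6 probe sets for seed storage proteins were at background on all 24 arrays. Of 2 root probe sets, LOC541893 averaged 89 in W23, against 17.6 in B73, 20.4 in Mo17 and 15 in Wf9, and LOC542706 averaged 42 in B73, against 12.4 in Mo17, 10.9 in W23 and 11.1 in Wf9. Of 2 pollen probe sets, LOC732844 averaged 72.3 in Mo17, against 25.4 in B73, 38.5 in W23 and 39.2 in Wf9, and the other was at background on all arrays. The part of these tissues in the results below was not tested. B73 replicate 3 array 1 stood apart from its technical partner, with an SD of the log2 difference of 0.866 across bright probe sets, against 0.0962 to 0.213 in the other 11 technical pairs. W23 replicates 2 and 3 differed by an SD of 0.180, within the range of those technical pairs and below the 0.384 to 0.934 of the other 11 pairs of growth replicates. They are labelled as separate growths, but they may not be separate RNAs. The counts of calls and some of the single differences below are also given with their mean counted as 1 replicate. The rule gave the same 30 members without the array of B73 that stood apart.

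The counts by silent line were uneven, while the pools from which the members could come were of like size, since 3413 unnamed probe sets had a mean of at least 50 in each line other than Wf9, 3424 in each line other than W23, 3372 other than Mo17 and 3399 other than B73. Over all unnamed probe sets the share at background on every array of a line was also alike, at 32.2% in Wf9, 31.3% in W23, 30.3% in Mo17 and 30.5% in B73. When the requirement of a mean of 50 was dropped, so that each other line only needed 1 array above 16.7, the counts were 84 for Wf9, 100 for W23, 74 for Mo17 and 88 for B73, and B73 no longer had few. The low count of B73 was found among the bright probe sets and not among all those silent in 1 line.

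The total moved with both thresholds of the rule. A background level of 10 left 11 members, of which Wf9 and W23 had 4 each, Mo17 3 and B73 0. A level of 25 gave 55, with 24 for Wf9, 19 for W23, 11 for Mo17 and 1 for B73. A minimum mean of 25 gave 80 and raised B73 to 10, against 22 for Mo17, 28 for W23 and 20 for Wf9. A minimum mean of 100 left 19. B73 had the fewest members under each of these 4 settings.

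**Figure D1:**
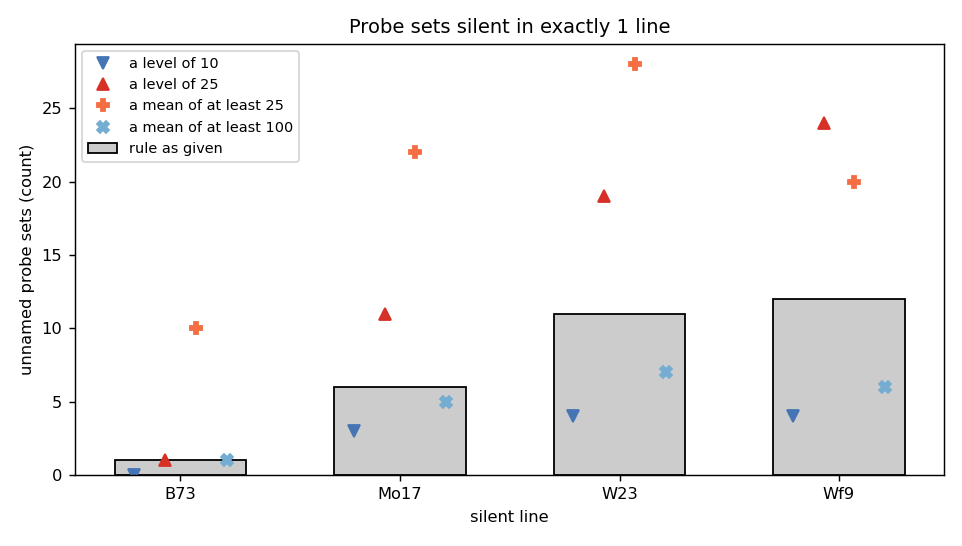
Number of unnamed probe sets silent in exactly 1 line (vertical axis) by silent line (horizontal axis), under the rule as given (bars) and under 4 other settings of its 2 thresholds (symbols). The bar of B73 stands at 1, and the symbols of a minimum mean of 25 reach 10 in B73 and 28 in W23.

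The members nearest to the thresholds show how sharp the choice is. Just inside the level were Zm1Affx.270.1.A1_at, whose highest Mo17 array was 15.9, and Zm3.6666.2.A1_x_at, whose highest Wf9 array was 15.7. Just outside were Zm3.6752.1.A1_at, whose highest W23 array was 16.8 with at least 432 as the mean of each other line, and Zm1.5599.1.A1_at, whose highest Wf9 array was 16.8 as well. Just inside the minimum mean were Zm3.9100.1.A1_at, with 50 in W23, and Zm3.3365.1.A1_at, with 50.9 in Wf9. Just outside were Zm1Affx.213.1.A1_x_at, with 49.5 in Wf9, and Zm1Affx.1331.1.A1_s_at, with 46.9 in W23. A growth replicate left out at a time gave 29 to 35 members, and 27 of the 30 were kept in all 12 such repeats. Zm3.3365.1.A1_at was kept in 9 of them, and Zm3.7687.1.A1_at and Zm3.9100.1.A1_at in 11 each.

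In their silent line, the members had mean signals of 1.02 to 13.3, with a median of 6.99, and no array above 15.9. The 180 single values of members in their silent lines had a median of 6.75, while the 1049 values of the 44 unspiked controls had a median of 2.2 and reached 21.6. Of the 180 values, 33 (18.3%) were at or below that control median. The rule itself placed the members within the range of the controls, and most of their values lay above the median of the controls. No expressing line had a single array at or below 16.7 in any of the 30 members.

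In their expressing lines the members were of moderate brightness. The mean of the lowest expressing line ran from 50 to 538, with a median of 139, and 11 members had less than 100 there. The mean over the 3 expressing lines had a median of 219, against 284 for the 3666 unnamed probe sets with at least 50 in 3 or more lines, and 11 members lay above that median. Taken against the background level, the silent line was at least 2.92-fold to at least 31.4-fold below the lowest expressing line. These are lower bounds, from geometric means over the 3 growth replicates, and they were 10-fold or more in 10 members, of which W23 held 7, Wf9 2 and Mo17 1.

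**Figure D2:**
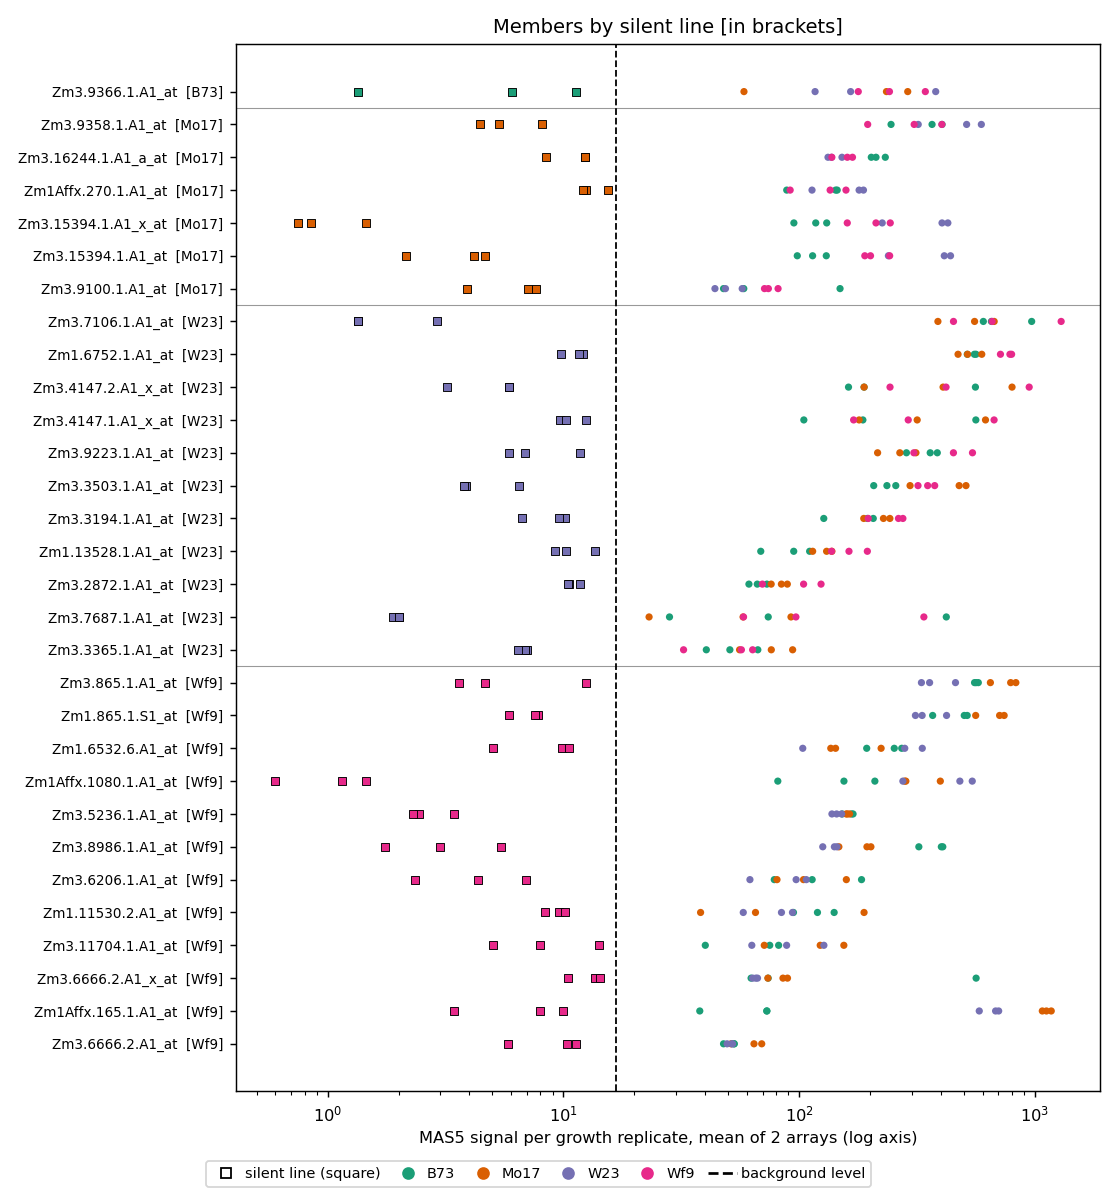
Signal of the 30 members (rows) in each of 12 growth replicates on a log axis, with the silent line as outlined squares and the expressing lines as circles, coloured by line. The dashed line is the background level of 16.7, all squares lie to its left and all circles to its right, and Zm1Affx.165.1.A1_at spreads its circles the most, between means of 61.3 in B73 and 1122 in Mo17.

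The single member silent in B73 was Zm3.9366.1.A1_at. Its signal was 11.4, 6.05 and 1.35 in B73, against 289, 235 and 58.4 in Mo17, 379, 117 and 165 in W23, and 343, 242 and 178 in Wf9. The 3 B73 values lay below all 9 others, the nearest of which was Mo17 replicate 3, and the bound was 9.43-fold below Mo17. The expressing lines overlapped each other, and the spread of the Mo17 replicates was wider than the distance between the line means.

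Among the 6 members silent in Mo17, Zm3.9358.1.A1_at had the brightest expressing lines. Its signal was 8.1, 4.45 and 5.35 in Mo17, against 366, 245 and 404 in B73, 593, 319.9 and 513 in W23, and 403, 195 and 308 in Wf9, a bound of at least 17.3-fold below Wf9. In all 3 expressing lines replicate 2 was the lowest. Zm3.16244.1.A1_a_at had 12.4, 12.4 and 8.45 in Mo17, against 232, 212 and 202 in B73, 152, 137 and 133 in W23, and 168, 160.1 and 138 in Wf9. B73 was above W23 and Wf9 in every replicate there, and Mo17 was at least 8.4-fold below W23.

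Zm3.15394.1.A1_at and Zm3.15394.1.A1_x_at carry the same cluster number, the number that the platform gives to a group of overlapping transcript sequences, and may share probes. The first had 4.65, 2.15 and 4.2 in Mo17, against 114, 98.2 and 130.4 in B73, 239, 413 and 439 in W23, and 189.9, 201 and 242 in Wf9. The second had 0.75, 1.45 and 0.85 in Mo17, against 118, 95 and 131 in B73, 225, 404 and 427 in W23, and 160, 212 and 243 in Wf9, the lowest silent mean of the 30 members at 1.02. Both were ordered Mo17, B73, Wf9, W23 by mean, and W23 replicates 2 and 3, which may be 1 RNA, were the brightest. Zm1Affx.270.1.A1_at had 12.5, 12.2 and 15.4 in Mo17, against 145, 88.6 and 143 in B73, 113, 187 and 179.6 in W23, and 135, 91.6 and 158 in Wf9, with overlap among all expressing lines. Zm3.9100.1.A1_at was the dimmest of the 6, with 7.65, 7.05 and 3.9 in Mo17, against 47.8, 58.3 and 149 in B73, 57.4, 44 and 48.7 in W23, and 71.3, 74.1 and 81.4 in Wf9.

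The 11 members silent in W23 held the widest gaps. Zm3.7106.1.A1_at had 1.35, 2.9 and 1.35 in W23, against 654, 969 and 604 in B73, 555, 672 and 388 in Mo17, and 658, 1292 and 451 in Wf9. W23 was at least 31.4-fold below Mo17, the largest bound of the 30 members. Zm1.6752.1.A1_at followed with at least 30.4-fold. Its signal was 9.75, 12.2 and 11.7 in W23, against 554, 562 and 516 in B73, 595, 518 and 472 in Mo17, and 714, 796 and 783 in Wf9. All Wf9 values were above all Mo17 values in Zm1.6752.1.A1_at. The 2 arrays of B73 replicate 3 read 214.6, on the array that stood apart, and 818.3, which is within the 713.3 to 857.7 of the single Wf9 arrays.

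Zm3.4147.2.A1_x_at and Zm3.4147.1.A1_x_at belong to 1 cluster and were next in brightness. Zm3.4147.2.A1_x_at had 3.2, 5.9 and 5.9 in W23, against 189, 559 and 162 in B73, 408, 799.6 and 189 in Mo17, and 419.8, 945 and 243 in Wf9, and Zm3.4147.1.A1_x_at had 9.65, 12.5 and 10.3 in W23, against 186, 562 and 105 in B73, 317, 617 and 179.7 in Mo17, and 290.2, 671 and 170.3 in Wf9. Within each expressing line the growth replicates differed several-fold, and the lines overlapped. The bounds were at least 15.2-fold and at least 13.3-fold below B73. Zm3.3503.1.A1_at had 3.85, 3.8 and 6.5 in W23, against 257, 207 and 236 in B73, 510, 477 and 295 in Mo17, and 351, 376 and 319 in Wf9, and was higher in all Mo17 and Wf9 replicates than in any of B73. The other 6 members silent in W23 had lowest expressing means of 50.9 to 265 and bounds between 2.92-fold and 15.6-fold.

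Among the 12 members silent in Wf9, Zm3.865.1.A1_at and Zm1.865.1.S1_at had the brightest expressing lines. Zm3.865.1.A1_at had 3.6, 12.5 and 4.65 in Wf9, against 575, 555 and 563 in B73, 830, 789 and 647 in Mo17, and 460.4, 358 and 330.1 in W23. Zm1.865.1.S1_at had 7.8, 7.55 and 5.9 in Wf9, against 501, 516 and 368 in B73, 740.3, 708 and 561 in Mo17, and 422, 332 and 311 in W23. The bounds were at least 22.7-fold and at least 21.1-fold below W23. The 2 probe sets share their number under different prefixes, and on this array 93 of 96 numbers that name a gene under both prefixes name the same gene, so both may read 1 transcript. Their names carry different orientation marks, A and S, and the strands they read were not compared. Their orders of lines were the same, with Mo17 highest and W23 lowest of the expressing lines.

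Zm1.6532.6.A1_at had 9.9, 5.05 and 10.6 in Wf9, against 193, 253 and 272 in B73, 136, 143 and 223 in Mo17, and 104, 281 and 333 in W23. Wf9 was at least 9.75-fold below Mo17, and the expressing lines overlapped. Zm1Affx.1080.1.A1_at had 1.15, 1.45 and 0.6 in Wf9, against 209.5, 81.2 and 155 in B73, 397, 284 and 281 in Mo17, and 275, 542 and 480.5 in W23. Its Wf9 values were all below the median of the unspiked controls, and its B73 values were below all others of the expressing lines.

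Zm1Affx.165.1.A1_at differed most among its expressing lines. Its signal was 3.45, 10 and 8 in Wf9, against 73, 72.9 and 37.9 in B73, 1172, 1119 and 1075 in Mo17, and 581, 681 and 702 in W23. B73 was closer to Wf9 than to Mo17 or W23, and by geometric means Mo17 was 19.2-fold above B73. Zm3.8986.1.A1_at had 1.75, 5.45 and 3 in Wf9, against 407, 322 and 401 in B73, 194, 147 and 202 in Mo17, and 126, 145 and 141 in W23, with B73 above Mo17 and W23 in every replicate. Zm3.5236.1.A1_at, named here after its values were seen, was the most even of the 30 members. It had 2.45, 3.45 and 2.3 in Wf9, against 169, 167 and 152 in B73, 160.1, 164 and 158 in Mo17, and 151, 144 and 138 in W23, and its highest and lowest expressing lines differed 1.13-fold.

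Zm3.6666.2.A1_at and Zm3.6666.2.A1_x_at belong to 1 cluster and were dim. Zm3.6666.2.A1_at had 10.4, 11.4 and 5.85 in Wf9, against 47.8, 53.1 and 53 in B73, 69.4, 64.4 and 51.5 in Mo17, and 51.8, 49.5 and 52.2 in W23. Zm3.6666.2.A1_x_at had 13.7, 14.4 and 10.5 in Wf9, against 73.9, 62.6 and 563 in B73, 89.3, 85.4 and 73.7 in Mo17, and 63.6, 66.6 and 65.5 in W23, and its high B73 value came from 1 array, the one of B73 that stood apart, which read 1049.6. Zm3.6206.1.A1_at, Zm1.11530.2.A1_at and Zm3.11704.1.A1_at complete the 12, with means of 65.6 to 125 in their expressing lines.

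The expressing lines of a member were mostly close to each other. The ratio of the highest to the lowest expressing line, by geometric means, was 1.13 to 19.2 with a median of 1.57, under 2-fold in 24 members and over 3-fold in 4. The 4 were Zm1Affx.165.1.A1_at, both probe sets of Zm3.15394 and Zm1Affx.1080.1.A1_at. Of the 11 members silent in W23, Wf9 was the highest line in 8 and B73 the lowest in 6. Of the 12 silent in Wf9, W23 was the lowest of the expressing lines in 8. These are counts of members, several of which share a cluster. The same ratios and orders of lines were not counted over all bright probe sets, so these counts are not read as particular to the members.

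Differences among the 3 expressing lines were tested, since the rule set only a minimum there. A limma fit of log2(signal + 16), in which an adjusted p under 0.05 after Benjamini-Hochberg correction across the 8346 tested probe sets counted as a call, called 11 of the 30 members (36.7%) different among their expressing lines. These were 3 of 6 members silent in Mo17, 3 of 11 silent in W23, 5 of 12 silent in Wf9 and 0 of 1 silent in B73. Over all tested probe sets the same test called 24.7% among the lines other than Mo17, 24.1% other than W23, 24% other than Wf9 and 24.3% other than B73. At an unadjusted p under 0.05 the 1 member silent in B73 was not called either, and 12 of the 30 were. The share of all probe sets under that unadjusted level was not counted. No test of these shares against the background was made.

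The fit shares 1 spread over all 4 lines, and values at background vary little on this scale. The silent line, which was used to choose the members, can therefore lower the spread in these tests. With the silent line left out of the fit, chosen after seeing the data, 8 of the 11 calls held, namely the 3 of Mo17 and the 5 of Wf9, and the 3 of W23 ended with adjusted p between 0.0589 and 0.0672. In that fit the test called 21.7% of all probe sets among the lines other than Mo17, 22.3% other than Wf9, 18.8% other than W23 and 28.7% other than B73. With W23 replicates 2 and 3 counted as 1, 10 members were called instead of 11. The single differences and pair calls below come from the fit of all 4 lines and were not repeated without the silent line.

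The clearest difference among expressing lines was in Zm1Affx.165.1.A1_at, silent in Wf9. It was lower in B73 than in Mo17, at a log2 difference of -3.92 ± 0.21 (SE, n = 3 each, limma adjusted p = 1.35e-07), lower in B73 than in W23, at a log2 difference of -3.15 ± 0.21, and higher in Mo17 than in W23 by 0.77 ± 0.21. Zm3.8986.1.A1_at was higher in B73 than in W23 by 1.34 ± 0.17 (limma adjusted p = 0.000154) and than in Mo17 by 0.98 ± 0.17. Zm1Affx.1080.1.A1_at went the other way, lower in B73 than in W23, at a log2 difference of -1.49 ± 0.31 (limma adjusted p = 0.00577). Both probe sets of number 865 were higher in Mo17 than in W23, by 0.96 ± 0.18 for Zm3.865.1.A1_at and 0.89 ± 0.18 for Zm1.865.1.S1_at. With W23 replicates 2 and 3 counted as 1, the difference of Zm1Affx.1080.1.A1_at between B73 and W23 was -1.34 (limma adjusted p = 0.0309). That of Zm1.865.1.S1_at between Mo17 and W23 was then 0.82 (limma adjusted p = 0.0329).

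Of the members silent in Mo17, Zm3.15394.1.A1_at was lower in B73 than in W23, at a log2 difference of -1.51 ± 0.22 (SE, limma adjusted p = 0.000476) and than in Wf9, at a log2 difference of -0.81 ± 0.22, and Zm3.15394.1.A1_x_at was lower in B73 than in W23, at a log2 difference of -1.46 ± 0.24. With W23 replicates 2 and 3 counted as 1, their differences between B73 and W23 were -1.38 (limma adjusted p = 0.00366) and -1.32 (0.00811). Zm3.16244.1.A1_a_at was higher in B73 than in W23 by 0.56 ± 0.15 (limma adjusted p = 0.0231), a call that ended with W23 replicates 2 and 3 counted as 1 (a difference of 0.53, adjusted p = 0.0886). Of those silent in W23, Zm3.3503.1.A1_at was lower in B73 than in Mo17, at a log2 difference of -0.80 ± 0.20. Zm1.6752.1.A1_at was lower in B73 than in Wf9, at a log2 difference of -0.57 ± 0.15, and the difference was -0.26 with an adjusted p of 0.338 without B73 replicate 3 array 1. Zm1.13528.1.A1_at, named after its values were seen, was lower in B73 than in Wf9, at a log2 difference of -0.77 ± 0.19. With W23 left out of the fit, the limma F-test of Zm3.3503.1.A1_at, Zm1.6752.1.A1_at and Zm1.13528.1.A1_at gave adjusted p of 0.0589, 0.0672 and 0.0644. Zm3.9366.1.A1_at, silent in B73, had a difference of -0.55 ± 0.51 between Mo17 and Wf9 that did not pass (adjusted p = 0.588), and it was 0.078 without Mo17 replicate 3.

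Some of these calls were lost when single growths were left out of the limma fit, while most of the differences stayed close in size. For Zm3.3503.1.A1_at the difference was -0.72 without B73 replicate 2 (adjusted p = 0.0525), -0.66 without Mo17 replicate 1 (0.0786) and -0.70 without Mo17 replicate 2 (0.0751). For Zm1.6752.1.A1_at it was -0.44 without B73 replicate 3 (adjusted p = 0.0591), and -0.62, -0.54 and -0.55 without Wf9 replicate 1 (0.0609), 2 (0.0773) or 3 (0.0696). For Zm1.13528.1.A1_at it was -0.60 without B73 replicate 2 (adjusted p = 0.0606) and -0.65 without Wf9 replicate 1 (0.0841). For Zm3.16244.1.A1_a_at it was 0.50 without B73 replicate 1 (adjusted p = 0.0787), 0.54 without W23 replicate 2 (0.0834) and 0.52 without W23 replicate 3 (0.0960). The largest pair differences of Zm1Affx.165.1.A1_at, Zm3.8986.1.A1_at, Zm1Affx.1080.1.A1_at, both 865 probe sets and both Zm3.15394 probe sets kept their calls without any single growth replicate. Over all 22 settings of the fit, the call of Zm3.865.1.A1_at was lost in 1, and those of the others in none. Of the members silent in W23, 1 was called in the F-test in place of 3 without B73 replicate 2, Mo17 replicate 2 or Wf9 replicate 1.

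By pairs of lines that both express a member, the same fit made 18 calls. Of 23 members expressed in B73 and Mo17, 4 were called, against 14.7% of all probe sets. Of 18 expressed in B73 and W23, 6 were called, against 16%, and these include both probe sets of Zm3.15394. Of 17 expressed in B73 and Wf9, 3 were called, against 14.5%, and B73 was lower in all 3. Of 13 expressed in Mo17 and W23, 3 were called, against 13.9%, with Mo17 higher in all 3. Of 12 expressed in Mo17 and Wf9, 1 was called, against 16.3%. Of 7 expressed in W23 and Wf9, 1 was called, against 15.3%. With W23 replicates 2 and 3 counted as 1, there were 14 calls in place of 18, and those between Mo17 and Wf9 and between W23 and Wf9 were both lost.

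The counts by pair moved with single growths and with the replicate number as a block, which goes with the growths of B73, Mo17 and Wf9. That replicate block was put in the fit of all 4 lines, W23 included, although W23 replicate 2 did not follow the other lines. The calls were then 6 between B73 and Wf9, against 18% of all probe sets, 2 between Mo17 and Wf9, against 18.7%, and 5 between B73 and Mo17, against 17.9%. Without Wf9 replicate 1 the 3 calls between B73 and Wf9 became 0, and without B73 replicate 2 or Wf9 replicate 3 they became 1. The 4 calls between B73 and Mo17 became 2 without B73 replicate 2, Mo17 replicate 1 or Mo17 replicate 2. When growth replicates were left out in turn, the call between Mo17 and Wf9 was lost without Mo17 replicates 2 or 3, W23 replicates 2 or 3, or Wf9 replicates 1 or 2. The call between W23 and Wf9 was lost without B73 replicate 1, any Mo17 replicate, W23 replicates 2 or 3, or any Wf9 replicate, and became 2 without B73 replicate 3 or W23 replicate 1. For fits with growths left out or merged, the shares over all probe sets were not counted. These counts are therefore not read as results about the members.

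**Figure D3:**
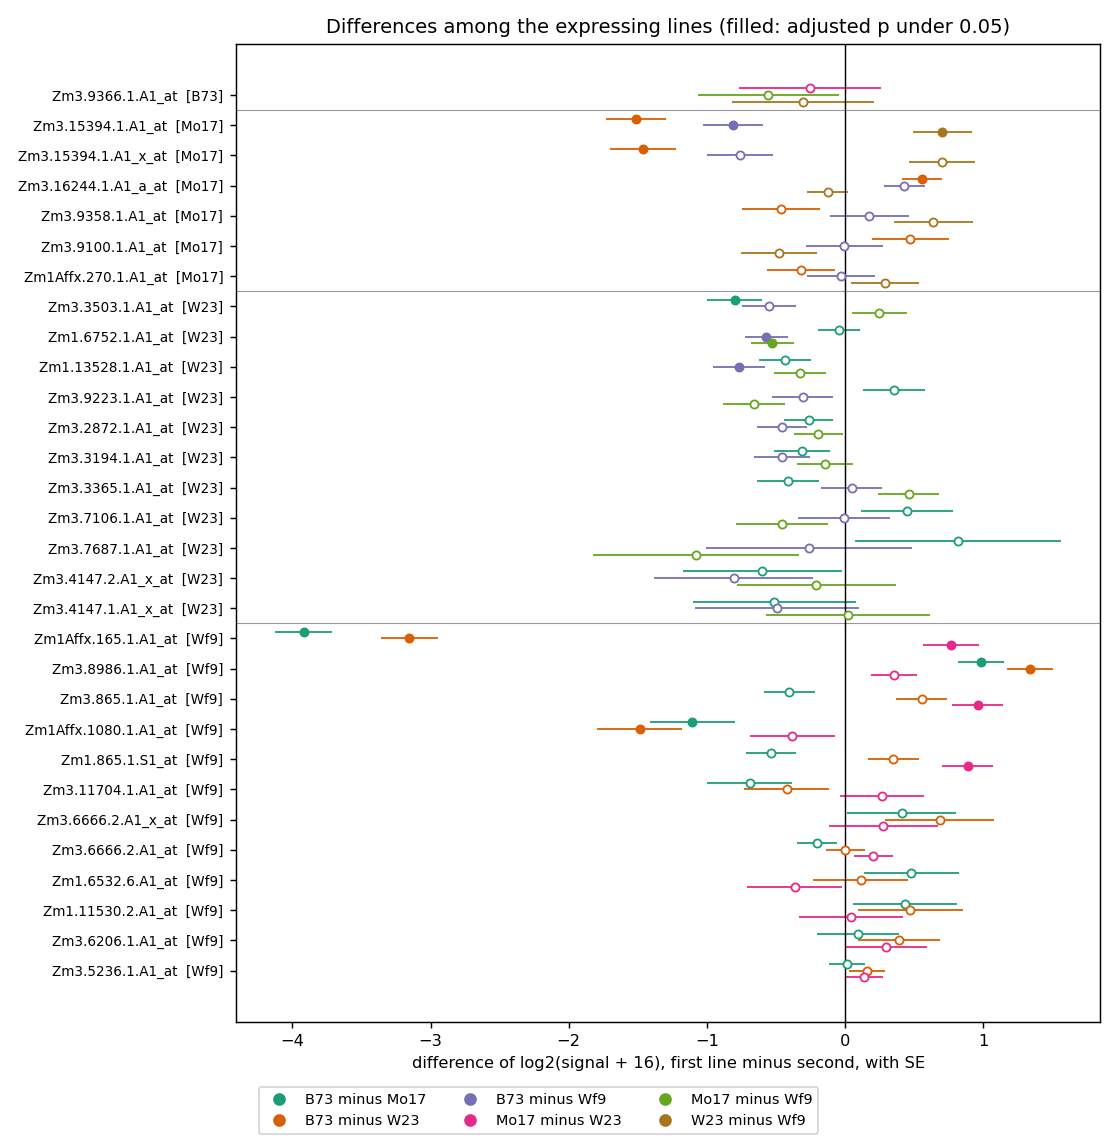
Differences of log2(signal + 16) with their SE (horizontal axis) between the expressing lines of each of the 30 members (rows), 3 pairs per member coloured by pair, first line minus second. Filled points passed an adjusted p of 0.05, the points of Zm1Affx.165.1.A1_at at -3.92 and -3.15 lie far to the left, and most other points lie near the zero line.

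Other probe sets of a member's cluster were not chosen by their own signal, so their difference between the silent line and the mean of the other 3 lines could be tested. They come from the same RNA and may read the same transcript or share probes, and they are not a separate sample. There were 11 such probe sets, for 9 members. Of these 11, 7 passed the test as lower in the silent line of the member in the limma fit, also with W23 replicates 2 and 3 counted as 1, 2 were higher and 2 were not called. The 7 include 3 probe sets at background on all arrays of the silent line, 1 of which had no line mean above 16.7. Over all tested probe sets, 7.72% were lower in Mo17 than in the mean of the other lines, 8.52% in W23 and 8.4% in Wf9.

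The other 2 probe sets of number 4147 were lower in W23. Zm3.4147.1.A1_a_at had 20.3, 13.3 and 15.1 in W23, against 208, 521 and 91.6 in B73, 343, 657 and 192 in Mo17, and 346, 753 and 198 in Wf9, a log2 difference of -3.35 ± 0.49 (SE, limma adjusted p = 0.000518). Zm3.4147.3.A1_a_at had 29.1, 20.7 and 18.6 in W23, against 192, 502 and 81.2 in B73, 336, 627 and 197 in Mo17, and 336, 726 and 202 in Wf9, a difference of -3.03 ± 0.49. Both were above 16.7 on some W23 arrays, and so they did not meet the rule themselves.

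Cluster Zm1.6532 held probe sets that differed in opposite directions. The partner Zm1.6532.6.A1_x_at, from the same subcluster as the member, had 43.2, 48.7 and 37.8 in Wf9, against 537, 621 and 464 in B73, 531, 515 and 870.4 in Mo17, and 359, 969 and 975 in W23, lower in Wf9, at a log2 difference of -3.37 ± 0.30 (SE, limma adjusted p = 1.19e-05). Both probe sets named asr1, an abscisic acid, stress and ripening gene listed as LOC542304, were higher in Wf9 than the mean of the log2 values of the other lines, by 1.43 ± 0.15 for Zm1.6532.1.A1_at and 1.33 ± 0.16 for Zm1.6532.1.A1_x_at. Zm1.6532.1.A1_at averaged 1842 in Wf9, against 3337 in B73, 78 in Mo17 and 1008 in W23, so that Mo17 was its lowest line and Wf9 lay below B73. Zm1.6532.7.A1_at averaged 6749 in Wf9, against 5975, 7614 and 7045 in B73, Mo17 and W23, with a difference of -0.02 ± 0.24 (adjusted p = 0.978). The line that was silent for the member was thus not low across the cluster.

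Zm3.6666.1.A1_at, in the cluster of both Zm3.6666.2 members, averaged 364 in Wf9, against 251 in B73, 475 in Mo17 and 528 in W23, and was not called (adjusted p = 0.821). Zm3.16244.2.A1_x_at, partner of a member silent in Mo17, had 62, 59.5 and 51.2 in Mo17, against 84, 141 and 79 in B73, 135, 128 and 113 in W23, and 109, 133 and 119.9 in Wf9. Its difference of -0.81 ± 0.18 (SE, limma adjusted p = 0.00794) stands beside -2.76 for the member, which is a description, and all Mo17 replicates of this partner were above 50. The 3 members with the prefix Zm1Affx each had a partner for the opposite orientation of the sequence. These 3 partners were dim in every line and at background on all arrays of the silent line, so that no size of a difference is given. Zm1Affx.270.1.S1_at averaged 4.9 in Mo17, against 11 in B73, 13.9 in W23 and 11.2 in Wf9, which is background by mean in all 4 lines. Zm1Affx.1080.1.S1_at averaged 2.33 in Wf9, against 10.2 in B73, 24 in Mo17 and 19.1 in W23. Zm1Affx.165.1.S1_at had 0.7, 1.55 and 0.9 in Wf9, against 0.55, 3.2 and 2 in B73, 34.8, 24.8 and 19.5 in Mo17, and 12.8, 16.7 and 16.4 in W23, at background in both Wf9 and B73.

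Matching by number under the other prefix, a comparison added after seeing the data, gave 3 more probe sets. They may read the same transcript as their member, whose silent line was chosen, so their p-values add no separate support. Zm3.6752.1.A1_at had 11.5, 16 and 13 in W23, against 466, 457 and 417 in B73, 455, 456 and 385 in Mo17, and 560.1, 635 and 639.5 in Wf9, lower in W23 (limma adjusted p = 1.32e-09). Its W23 replicates were all below 16.7, so that no size of the difference is given, and it is the probe set just outside the level. Zm3.11530.1.A1_at had 5.7, 4.75 and 9.6 in Wf9, against 76.7, 106 and 122 in B73, 23.9, 37.5 and 77.2 in Mo17, and 46.3, 69.7 and 58.6 in W23, at background on all arrays of Wf9 and at least 2.45-fold below Mo17 there (limma adjusted p = 0.000159 against the mean of the other lines). It is the counterpart of the member Zm1.11530.2.A1_at, named here for that reason, which had 9.6, 8.35 and 10.2 in Wf9, against 94.6, 119.6 and 141 in B73, 38.2, 65.3 and 189 in Mo17, and 58, 93.7 and 84.2 in W23. Zm3.6532.1.A1_at averaged 1057 in Wf9, against 2439 in B73, 84.1 in Mo17 and 681 in W23. It was higher in Wf9 than the mean of the log2 values of the other lines, by 0.97 ± 0.17 (limma adjusted p = 0.00157), although Wf9 lay below B73.

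**Figure D4:**
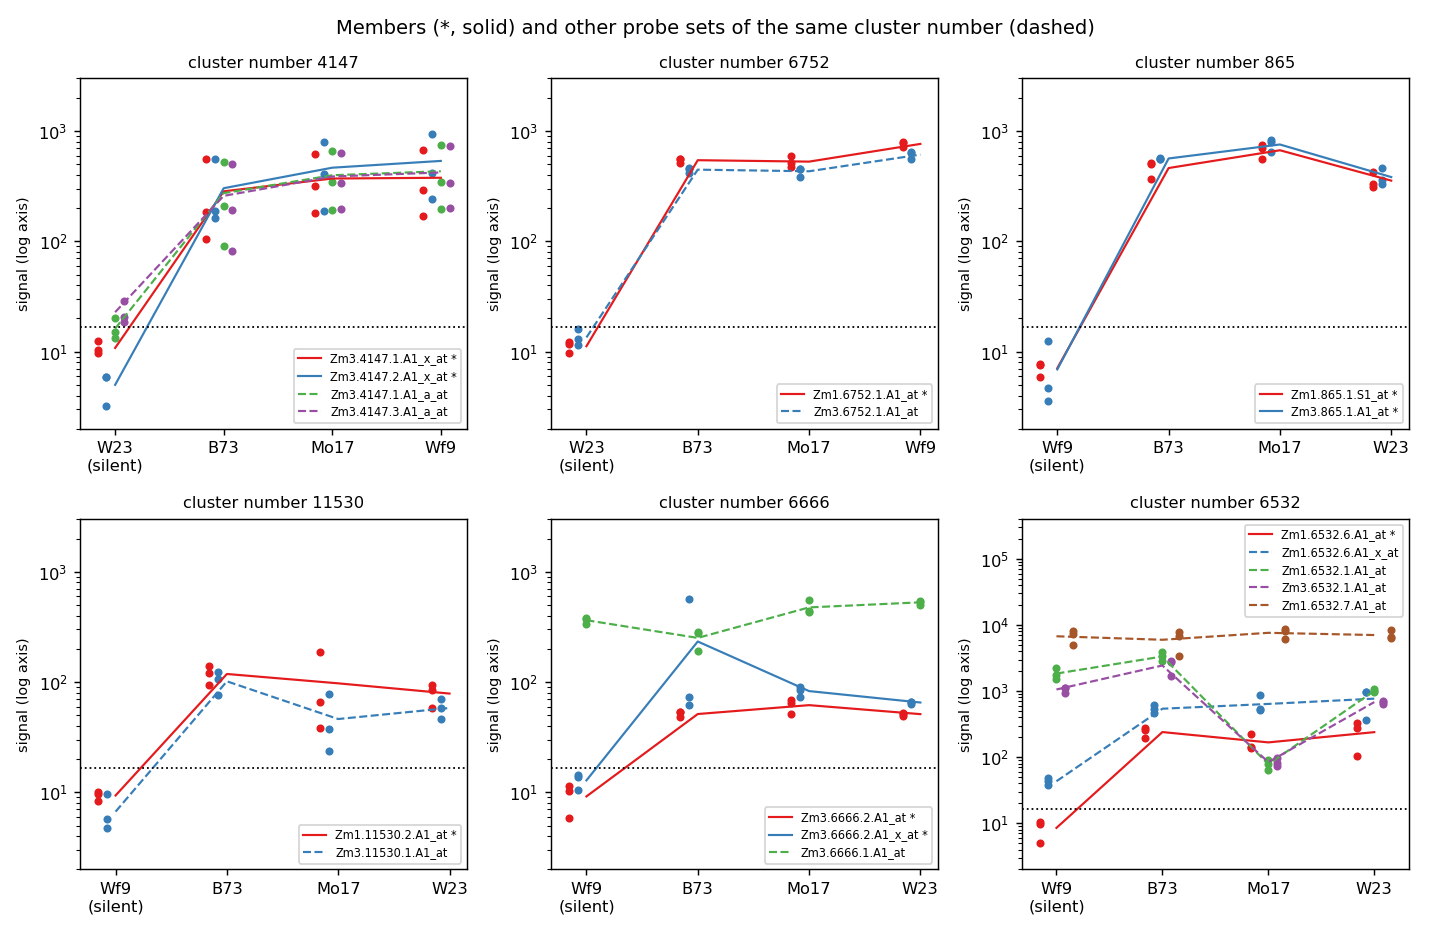
Signal (log axis) of members (solid lines, starred) and of other probe sets with the same cluster number (dashed lines) in 6 clusters, with the silent line leftmost. Lines join the means of the 3 growth replicates, which are the points, and the dotted line is the level of 16.7. All probe sets of numbers 4147, 6752, 865 and 11530 are low in the silent line, while in 6666 and 6532 some stay bright there.

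In some members silent in W23, the expressing lines varied together between growths. In 3 of the 11, both probe sets of number 4147 and Zm3.7106.1.A1_at, replicate 2 was the highest and replicate 3 the lowest in B73, Mo17 and Wf9 alike, and the lowest replicate was the same in the 3 lines in 6 of the 11. How often all probe sets share such an order was not counted, so these counts are not read as a trait of the members. In Zm3.4147.1.A1_x_at the highest replicate was 5.36-fold above the lowest in B73, 3.43-fold in Mo17 and 3.94-fold in Wf9. Zm3.7687.1.A1_at, named after its values were seen, had 2, 1.9 and 2 in W23, against 74, 28.2 and 421 in B73, 92.4, 23.1 and 57.9 in Mo17, and 96.9, 58.1 and 338 in Wf9, with replicate 2 the lowest in each expressing line and a 14.9-fold range in B73.

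Across all probe sets, same-numbered growth replicates of B73, Mo17 and Wf9 deviated together in all 9 comparisons, with correlations of 0.214 to 0.616, but W23 replicate 2 did not follow the others, with -0.620 to -0.335. These correlations run across probe sets, which are not independent replicates, and serve as a description of the numbering. A fit of B73, Mo17 and Wf9 alone with the replicate number as a block called 4 of the 11 members silent in W23 different among these lines, against 0 of 11 in the same lines without the block. Over all tested probe sets that fit called 28.5% with the block and 18.8% without it. Zm3.4147.2.A1_x_at had an adjusted p of 0.0193 with the block in limma, against 0.621 without it and 0.546 in the fit of all 4 lines. The other 3 calls with the block were Zm1.13528.1.A1_at, Zm1.6752.1.A1_at and Zm3.3503.1.A1_at.

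**Figure D5:**
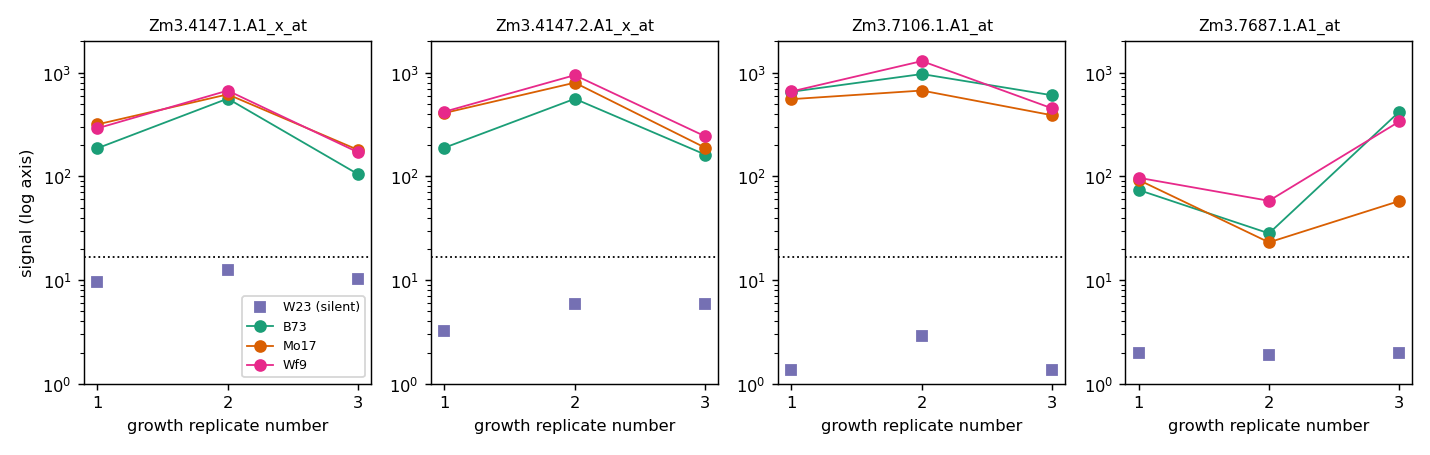
Signal (log axis) of 4 members silent in W23 by growth replicate number (horizontal axis, 3 growths), with W23 as squares and the expressing lines as joined circles; the dotted line is the level of 16.7. In the first 3 panels replicate 2 is the highest and replicate 3 the lowest in each expressing line, and in Zm3.7687.1.A1_at replicate 2 is the lowest. The joining lines only tie the 3 growths of a maize line together, and the growths have no order.

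Named probe sets met the same thresholds in 5 cases, 3 silent in Wf9 and 2 in W23, and none in Mo17 or B73. Both probe sets of LOC541834, the glutathione S-transferase gene gst19, averaged 9.73 and 11.7 in Wf9, against 92.8 to 167 in the other lines. LOC542446, an annexin gene whose products bind membranes with calcium, averaged 10.7 ± 4.0 in Wf9, against 62.5 ± 28.3 in B73, 61.2 ± 31.7 in Mo17 and 68.7 ± 24.3 in W23 (SD, n = 3 growth replicates each by their labels). LOC542385, listed as a histone H1 gene, averaged 10.3 ± 1.4 in W23, against 531 ± 268 in B73, 464 ± 80.3 in Mo17 and 227 ± 89.8 in Wf9. mbd111, a gene of the methyl-CpG-binding domain family, averaged 1.95 ± 0.96 in W23, against 249 ± 42.5 in B73, 265 ± 46.2 in Mo17 and 294 ± 45.7 in Wf9. The named probe sets with at least 50 in the other 3 lines numbered 511 for Wf9, 517 for W23, 503 for Mo17 and 505 for B73.

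The probe set names of the members were compared with those of other unnamed probe sets. An A orientation, 1 of the 2 orientations marked in the names, was found in 29 of 30 members (96.7%), against 84.2% of the 3666 unnamed probe sets with at least 50 in 3 or more lines and 72.4% of all unnamed ones. The exception was Zm1.865.1.S1_at. A suffix that marks probes shared with other sequences was carried by 5 members. It was x in 4 (13.3%, against 10.2% of those bright unnamed probe sets) and a in 1 (3.33%, against 7.31%). The prefix was Zm3 in 22 members (73.3%, against 68.1%), Zm1 in 5 (16.7%, against 20.4%) and Zm1Affx in 3 (10%, against 11.4%). The shares of suffixes and prefixes were close to those of the bright unnamed probe sets. The 30 members stand for 27 clusters.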

How the data were processed

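The authors deposited 1 table of probe set signal, an intensity on a linear scale, for 8475 probe sets on 24 arrays. Per the submitters' processing notes, it was made with MAS5 in GCOS. The scaling target is not given in the sources used here, nor is a software version. Its 213 exact zeros, all on B73 replicate 3 array 1, were treated as missing, and 129 control probe sets were left out. The members, gene lists and tests were chosen with earlier results of these data known. The platform table gives 1 gene symbol to 862 probe sets and none to 7613. Members were found on the deposited signal.

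For tests, arrays were rescaled to one 2% trimmed mean, log2(signal + 16) was taken, and log2 values were averaged over the 2 arrays of each RNA. The 12 growth replicates were fitted with limma 3.58.1 in R 4.3.3, with line as the only term, eBayes with a mean-variance trend and Benjamini-Hochberg adjustment over 8346 probe sets. The script was tested on simulated data. A fold against a silent line is a ratio of geometric means with 16.7 in place of the silent signal. P-values treat the growths as separate samples, and the number of growths per line limits the precision.

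Members are named by probe set ID. Per silent line, the text names the 4 with the brightest lowest expressing line and the 2 with the smallest F-test p, all members of lines with 6 or fewer, those nearest the thresholds, those with a partner in their cluster, and named probe sets that meet the thresholds. Same-numbered growth replicates correlated above 0.1 in 15 of 18 comparisons between lines; the 3 others involve W23 replicate 2, so the numbers were taken to pair B73, Mo17 and Wf9 only. Alternatives changed the thresholds, the pseudocount, the normalization, the handling of zeros, the filter on dim probe sets, array weights, the replicate block and the replicates used. No probe or transcript sequences were used here, and no coordinates are given.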

Additional observations from a re-analysis of the deposited data

How the results depend on the processing

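The number of members, 30, followed the thresholds. It was 11 at a background level of 10, 55 at a level of 25, 80 with a minimum mean of 25 and 19 with a minimum mean of 100. It was 30 with quantile normalization, of which 29 were shared, 32 with technical arrays averaged first, 26 without probe sets whose suffix is s or x, and 22 when every array of the expressing lines had to reach 50. Leaving out 1 growth replicate at a time gave 29 to 35 members, 8 to 12 members called different among expressing lines (11 with all replicates), 13 to 21 pair calls (18 with all replicates), and 7 partners lower in the silent line. With the replicate number as a replicate block in the fit of all 4 lines, these counts were 12, 26 and 7. Array weights, whose estimation stopped before it converged, gave 15 members, 37 pair calls instead of 18, and 8 partners. Other settings kept the calls among expressing lines between 8 and 11 and the pair calls between 12 and 21. Beyond the shares given above, none over all probe sets was counted under these settings, array weights included. The counts of calls are therefore not read as results about the members. The largest difference of 12 named members was followed over 22 settings each, 264 in all. It kept its direction and its side of the threshold in 247, lost the call in 16 and reversed in 1, Mo17 minus Wf9 in Zm3.9366.1.A1_at, which ran between -0.94 without Mo17 replicate 1 and 0.078 without Mo17 replicate 3. The cause of these changes was not tested. No present or absent calls and no probe-level signals were used here, so a level below 16.7 has only a bound.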
